A study of Mus musculus with 14 samples.

Results

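Oxidative stress, iron storage and metallothionein genes were followed in the brains of mice in which the lysosomal enzyme acid beta-glucosidase was blocked. The set holds 10 genes named by symbol, Hmox1, Nqo1, Gclc, Gclm, Txnrd1, Srxn1, Fth1, Ftl1, Mt1 and Mt2, out of 13866 genes listed with counts, and all 10 were among the 11852 genes that passed the filter on low counts and were tested. Mice aged 19 days were either C57BL/6JOlaHsd (WT) or MyTrMaSt null, which lack MyD88, TRIF, MAVS and STING, the adaptor proteins through which most innate sensors of microbes and nucleic acids signal. From day 8 they received daily intraperitoneal injections of PBS or of conduritol B-epoxide (CBE, 100 mg/kg), an irreversible inhibitor of acid beta-glucosidase that is used to model neuronopathic Gaucher disease. Brain tissue gave 1 library per mouse, and of the 14 libraries 3 were from PBS-injected and 3 from CBE-injected WT mice, 3 from PBS-injected MyTrMaSt mice and 5 from CBE-injected MyTrMaSt mice. The deletions are not restricted to a cell type, and the WT mice came from a supplier, so that genotype, colony and strain background cannot be told apart. CBE was given systemically, and fewer cells of a type and less RNA per cell, or more of both, cannot be told apart in such bulk samples.

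The genes belong to linked defences. NRF2, a transcription factor held back by KEAP1, drives enzymes that renew glutathione and thioredoxin and that detoxify quinones, and BACH1 holds heme oxygenase down until heme rises. Heme oxygenase frees iron from heme, ferritin stores that iron in a shell of heavy and light chains, and metallothioneins bind zinc and copper and are induced by metals through MTF1, by glucocorticoids and in reactive astrocytes. In brain, ferritin is abundant in microglia and oligodendrocytes, and the metallothioneins encoded by Mt1 and Mt2 are typical of astrocytes.

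Library totals ran from 1290616 to 3704691 counts. The lowest was WT + PBS replicate 1, which stood apart for several of these genes, and MyTrMaSt + CBE replicate 4 stood apart for others. Xist, a transcript of female cells, had 0 counts in all 3 WT + PBS libraries and in MyTrMaSt + CBE replicate 4 and 1 to 47 counts in the others, so in WT mice sex and CBE treatment are partly confounded. Among PBS libraries Xist had 0 counts in all 3 from WT and 32, 46 and 33 in those from MyTrMaSt, so there sex and genotype cannot be told apart. Levels below are CPM (counts relative to the TMM-scaled size of each library). Reads came from transcript 3' ends, so CPM does not rise with gene length, but genes are not ranked by level here, and 2 genes are set against each other only as a ratio within a library that is followed across the groups.

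After CBE 5 of the 10 genes rose in both genotypes: Hmox1, Fth1, Ftl1, Mt1 and Mt2. The other 5, Nqo1, Gclc, Gclm, Txnrd1 and Srxn1, did not pass the test in either genotype. A gene was called at an adjusted p below 0.05. Of all tested genes 6.70% were called higher and 3.89% lower with CBE in WT, and 5.32% higher and 2.44% lower in MyTrMaSt, against 5 higher and 0 lower of the 10 in each. With at least 2-fold change required as well, 4 of the 10 remained in each genotype, Hmox1, Ftl1, Mt1 and Mt2, where 5.20% of all tested genes in WT and 3.23% in MyTrMaSt were higher by that rule. The median log2 fold change of the 10 genes was 0.48 in WT and 0.81 in MyTrMaSt, and that of all tested genes was -0.02 and 0.0052.

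**Figure D1:**
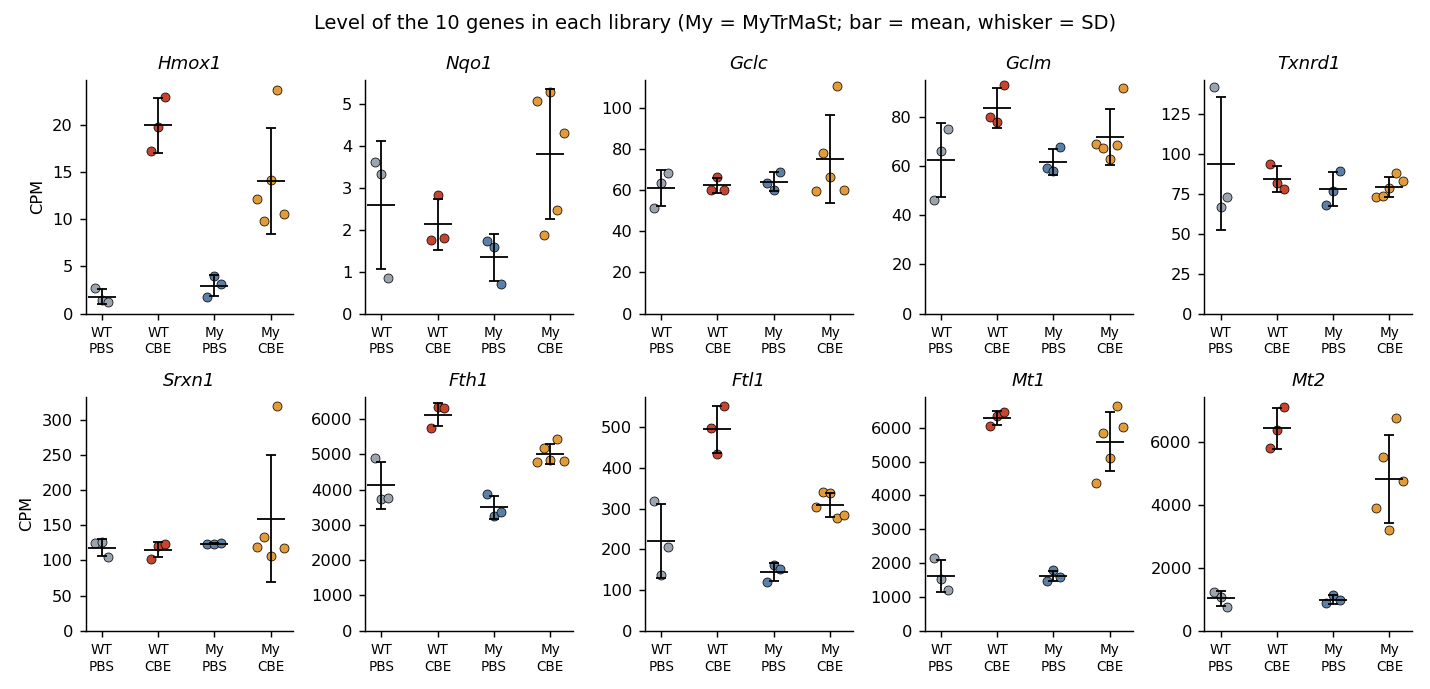
CPM of each gene (vertical axis, from 0) in the 14 libraries by group, with 1 point per mouse, a bar at the group mean and a whisker of 1 SD. For Hmox1, Fth1, Ftl1, Mt1 and Mt2 each CBE group lies above the PBS group of its genotype, whereas Gclc, Txnrd1 and Srxn1 overlap, with single high libraries at 110.8 CPM (Gclc), 141.7 CPM (Txnrd1) and 320.0 CPM (Srxn1).

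Hmox1 encodes heme oxygenase 1, the inducible enzyme that opens the heme ring and frees its iron. Its level was 2.71, 1.38 and 1.27 CPM in the WT + PBS libraries and 17.2, 19.7 and 22.9 CPM in WT + CBE. In MyTrMaSt mice it was 1.73, 3.96 and 3.17 CPM with PBS and 12.1, 9.76, 14.2, 23.6 and 10.6 CPM with CBE. The PBS and CBE libraries did not overlap in either genotype. The log2 fold change was 3.61 (SE 0.44, adjusted p 1.47e-05) in WT, a 12.2-fold rise with a 95% interval of 6.42 to 23.2. In MyTrMaSt it was 2.18 (SE 0.345, adjusted p 5.71e-04), a 4.53-fold rise with an interval of 2.74 to 7.49. The WT + PBS libraries hold only 3 to 5 counts of Hmox1 each, which is why the interval of the WT fold is wide. The difference between both responses, tested as the genotype by CBE interaction, was -1.43 on the log2 scale (unadjusted p 0.032, adjusted p 0.368) and was not called. Among the CBE libraries 4 of the 5 MyTrMaSt values lay below all 3 WT values, and replicate 4, at 23.6 CPM, lay above them.

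Nqo1 encodes a quinone reductase that is often read as a reporter of NRF2. It was scarce, with 2 to 13 counts per library. Levels were 3.61, 3.32 and 0.844 CPM in WT + PBS and 1.75, 2.82 and 1.81 CPM in WT + CBE. They were 1.73, 1.59 and 0.704 CPM in MyTrMaSt + PBS and 5.07, 1.88, 5.27, 2.46 and 4.31 CPM in MyTrMaSt + CBE. The WT groups overlapped, and the MyTrMaSt + CBE libraries all lay above the MyTrMaSt + PBS libraries, the closest pair being 1.88 and 1.73 CPM. The log2 fold change was -0.26 (SE 0.565, adjusted p 0.831) in WT, with a 95% interval of -1.45 to 0.93. In MyTrMaSt it was 1.46 (SE 0.477, adjusted p 0.0701). That value passed the threshold without WT + PBS replicate 1 (adjusted p 0.0399), without MyTrMaSt + CBE replicate 2 (0.0474), without both outlying libraries (0.0276) and with only the groups compared in the fit (0.0427). The interaction of Nqo1 was 1.72 (unadjusted p 0.0336, adjusted p 0.368).

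Gclc and Gclm encode the catalytic and modifier subunits of glutamate-cysteine ligase, the enzyme that sets the rate of glutathione synthesis. Gclc ran from 51.4 to 68.3 CPM in WT + PBS, from 60.2 to 66.6 CPM in WT + CBE, from 60.0 to 69.0 CPM in MyTrMaSt + PBS and from 59.6 to 110.8 CPM in MyTrMaSt + CBE. All 4 ranges overlapped, and the next value below 110.8 CPM, that of replicate 4, was 78.1 CPM. Its log2 fold change with CBE was 0.02 (95% interval -0.43 to 0.46, adjusted p 0.978) in WT and 0.22 (interval -0.17 to 0.61, adjusted p 0.501) in MyTrMaSt. Gclm was at 46.0, 66.3 and 75.1 CPM in WT + PBS and at 80.0, 77.9 and 92.8 CPM in WT + CBE. These WT groups did not overlap, yet the difference of 0.39 on the log2 scale (SE 0.187, unadjusted p 0.0505, adjusted p 0.204) did not pass the test. In MyTrMaSt Gclm was at 59.4, 58.1 and 67.6 CPM with PBS and at 69.0, 67.2, 62.8, 68.4 and 91.6 CPM with CBE, which is 0.22 on the log2 scale (SE 0.165, adjusted p 0.451). Exons of Gclm share 296 bases with Gm17494 on the opposite strand and 244 bases with Gm6061 on the same strand, so some of its reads may belong to either.

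Txnrd1 encodes cytosolic thioredoxin reductase, and Srxn1 encodes sulfiredoxin, which restores overoxidised peroxiredoxins. Txnrd1 was at 141.7, 66.9 and 72.6 CPM in WT + PBS and at 93.4, 81.7 and 77.7 CPM in WT + CBE. In MyTrMaSt it ran from 67.7 to 89.1 CPM with PBS and from 72.9 to 88.1 CPM with CBE. The groups overlapped in both genotypes, and the sign of the WT change rested on WT + PBS replicate 1. The log2 fold change in WT was -0.11 (SE 0.225, adjusted p 0.823) with that library and 0.29 (adjusted p 0.228) without it. The MyTrMaSt value was 0.02 (interval -0.39 to 0.44, adjusted p 0.962).

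Srxn1 was at 125, 126.0 and 105 CPM in WT + PBS and at 103, 120.1 and 123 CPM in WT + CBE. MyTrMaSt + PBS libraries held 123, 124 and 125 CPM, and MyTrMaSt + CBE libraries 120, 133, 107, 320.0 and 118 CPM. All libraries but replicate 4 of the MyTrMaSt + CBE group thus lay within 103 to 133 CPM. The log2 fold change was -0.04 (SE 0.31, adjusted p 0.961) in WT mice. The MyTrMaSt value was 0.36 (SE 0.274, adjusted p 0.461). Without replicate 4 it was -0.05 (adjusted p 0.849).

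**Figure D2:**
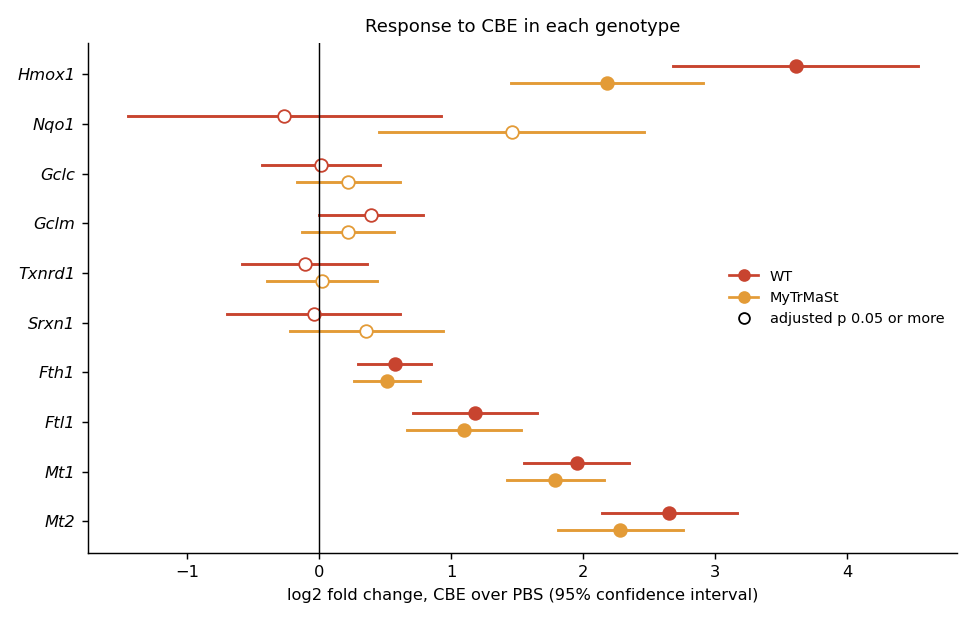
Log2 fold change of CBE over PBS (horizontal axis) for each gene in WT and MyTrMaSt mice, with 95% confidence intervals and open circles where the adjusted p was 0.05 or more. The intervals of Hmox1, Fth1, Ftl1, Mt1 and Mt2 lie above 0 in both genotypes, and those of Gclc, Gclm, Txnrd1 and Srxn1 reach 0 in both.

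The library with the high Srxn1 value was examined gene by gene. MyTrMaSt + CBE replicate 4 was the highest of the 5 libraries of its group for 7 of the 10 genes, lay within the others for 2 (Nqo1 and Gclm) and was the lowest for Ftl1. It stood at 2.69 times the median of the other 4 libraries for Srxn1, 2.09 times for Hmox1, 1.75 times for Gclc and 1.57 times for Mt2. For how many of all tested genes replicate 4 was the highest was not counted, so 7 of 10 is not read as particular to this set. The 3 genes whose log2 CPM followed Srxn1 most closely over the 14 libraries were Vgf (Pearson r 0.933), Penk (0.932) and Ppp1r37 (0.926), of which Vgf and Penk encode neuropeptide precursors. These and the next genes were chosen after their values were seen, and such correlations rest on libraries that share group and depth. Inhba was at 126.5 CPM in replicate 4 against 4.05 to 10.1 CPM in the other 4. Nptx2, a synaptic pentraxin, was at 260.4 against 13.6 to 40.2 CPM, and Egr3, an activity-induced transcription factor, at 189 against 21.8 to 46.6 CPM. Maff, a small MAF partner of NRF2, was at 26.1 against 4.68 to 7.51 CPM. Inhba, Nptx2, Egr3 and Vgf are known to be induced by neuronal firing, and all lay far above the other libraries in the same mouse as Srxn1. Their part in the Srxn1 and Gclc values was not tested.

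**Figure D3:**
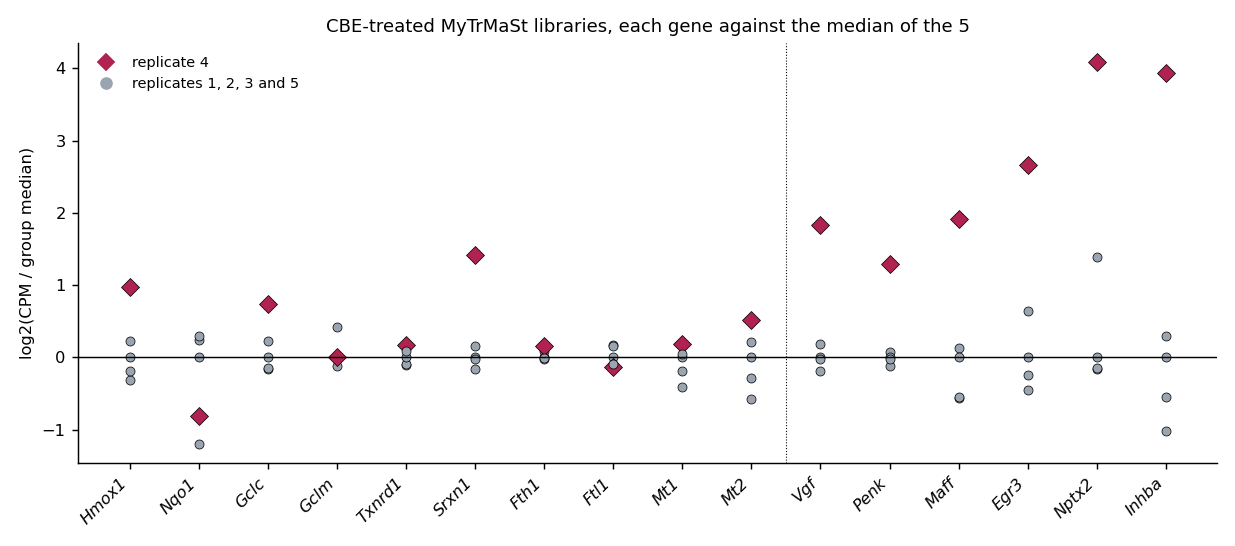
Log2 ratio of CPM to the group median (vertical axis) in the 5 MyTrMaSt + CBE libraries for the 10 genes (left of the dotted line) and 6 further genes, with replicate 4 as diamonds. Replicate 4 lies above the other 4 libraries for 7 of the 10 genes, most for Srxn1, and for all 6 further genes. No such count was made over all tested genes.

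The stretch upstream of Srxn1 is shown because of that library. It runs over chr2:152105274-152105515 (GRCm38, plus strand, RefSeq start, cut before the GENCODE start), and capitals mark matches to the AP-1 site TGAGTCA or TGACTCA.

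Srxn1: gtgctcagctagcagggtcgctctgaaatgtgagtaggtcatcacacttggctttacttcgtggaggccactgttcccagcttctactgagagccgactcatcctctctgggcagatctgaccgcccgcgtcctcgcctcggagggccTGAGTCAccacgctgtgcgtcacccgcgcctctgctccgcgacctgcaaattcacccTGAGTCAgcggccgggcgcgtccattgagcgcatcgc

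Searched on both strands, the 250 bases before the Srxn1 start hold 2 AP-1 matches, beginning 102 and 45 bases upstream. Of 32851 such windows of all genes, 4.46% hold at least 1. A match is a description of the letters and not a bound site.

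Fth1 and Ftl1 encode the heavy and light chains of ferritin, of which the heavy chain oxidises iron and the light chain helps to lay down the mineral core. Fth1 was at 4897, 3724 and 3747 CPM in WT + PBS and at 5736, 6326 and 6309 CPM in WT + CBE. In MyTrMaSt it was at 3872, 3240.4 and 3378 CPM with PBS and at 4782, 5165, 4840.5, 5424 and 4799 CPM with CBE. No CBE library fell within the PBS range of its genotype. On the log2 scale Fth1 rose by 0.57 (SE 0.131, adjusted p 0.00793), a 1.49-fold rise, in WT and 0.52 (SE 0.118, adjusted p 0.0108), a 1.43-fold rise, in MyTrMaSt. The call was lost in WT with only the groups compared in the fit (adjusted p 0.118) and in MyTrMaSt without MyTrMaSt + PBS replicate 2 (0.0641) or 3 (0.0574) and with the replicate block (0.0933). That block has a term per replicate number and sets MyTrMaSt + CBE replicates 4 and 5 aside, as no other group has those numbers.

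Ftl1 was at 319, 138 and 206 CPM in WT + PBS and at 497, 435 and 551 CPM in WT + CBE. It was at 119, 161 and 153 CPM in MyTrMaSt + PBS and at 303, 341, 339, 276 and 285 CPM in MyTrMaSt + CBE. The groups were apart within each genotype, with WT + PBS replicate 1, at 319 CPM, the closest control. The log2 fold change was 1.18 (SE 0.224, adjusted p 0.0017), or 2.26-fold, in WT, and in MyTrMaSt it was 1.10 (SE 0.205, adjusted p 0.00269), or 2.14-fold. In WT it was 0.96 (adjusted p 0.0594) with the Xist level as a covariate and 1.19 (adjusted p 0.065) with only the groups compared. Without WT + PBS replicate 1 it was 1.54. Within a library, counts of Ftl1 per 100 counts of Fth1 were 5.23 ± 1.42 (SD, n = 3) in WT + PBS and 8.09 ± 1.06 (n = 3) in WT + CBE, and 4.19 ± 0.99 (n = 3) and 6.19 ± 0.727 (n = 5) in MyTrMaSt. The exact (both-sided) permutation p was 0.1 in WT, the smallest that 3 against 3 allows, and 0.0357 in MyTrMaSt, with 0.16 for both after Benjamini-Hochberg adjustment over 8 such tests. Only uniquely mapping reads were kept, and mm10 holds near-copies of both genes (Fth-ps2, Fth-ps3, Ftl1-ps1, Ftl1-ps2 and Ftl2-ps), so part of the ferritin reads may have been dropped. Exons of Ftl1 also share 355 bases with Gm10252 on the opposite strand.

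Ferritin output is set mainly after transcription, by iron regulatory proteins that bind a hairpin near the 5' end of both messages and block translation when iron is low. The 30 bases around its loop, from GENCODE transcripts Fth1-201 and Ftl1-201 of GRCm38, are shown because the counts above report the message and not the protein. Capitals mark the 6 loop bases CAGTGN.

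Fth1: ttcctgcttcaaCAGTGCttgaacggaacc

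Ftl1: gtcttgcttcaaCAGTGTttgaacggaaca

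The 5 bases on either side of the loop pair in both transcripts. The 250 bases before the starts of Fth1 and Ftl1 held no match to the AP-1 site, to TGACNNNGC, the core of the antioxidant response element, or to TGCACNC or TGCGCNC, the core of the metal response element.

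Mt1 and Mt2 encode small cysteine-rich proteins that bind zinc and copper, and lie 5513 bases apart on chromosome 8. Mt1 was at 2143, 1533 and 1207 CPM in WT + PBS and at 6059, 6336 and 6462 CPM in WT + CBE. In MyTrMaSt it was at 1473, 1786 and 1601 CPM with PBS and at 4369, 5833, 5117, 6640 and 6019 CPM with CBE. The CBE libraries all lay far above the highest control value of their genotype. On the log2 scale Mt1 rose by 1.95 (SE 0.189, adjusted p 9.01e-07), or 3.87-fold, in WT and 1.79 (SE 0.176, adjusted p 3.08e-06), or 3.45-fold, in MyTrMaSt.

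Mt2 was at 1236, 1085 and 746 CPM in WT + PBS and at 5782, 6374 and 7099 CPM in WT + CBE. It was at 874, 1139 and 959 CPM in MyTrMaSt + PBS and at 3891, 5507, 3188, 6762 and 4736 CPM in MyTrMaSt + CBE. It rose 6.28-fold in WT (log2 2.65, SE 0.243, adjusted p 4.64e-07) and 4.86-fold in MyTrMaSt (log2 2.28, SE 0.226, adjusted p 3.31e-06). Neither metallothionein overlapped between PBS and CBE. Together the 10 genes took 0.633% to 0.77% of all counts in WT + PBS and 1.86% to 2.11% in WT + CBE, against 0.651% to 0.68% and 1.40% to 1.88% in MyTrMaSt.

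Mt2 counts per 100 Mt1 counts were 63.4 ± 6.69 (SD, n = 3) in WT + PBS and 102.0 ± 7.31 (n = 3) in WT + CBE (exact (both-sided) permutation p 0.1, the smallest possible). They were 61.0 ± 2.42 (n = 3) in MyTrMaSt + PBS and 85.3 ± 15.4 (n = 5) in MyTrMaSt + CBE (exact p 0.0714), where replicate 3, at 62.3, lay within the control range. After adjustment over the 8 tests both gave 0.16. Exons of Mt2 share 432 bases with Gm45774 on the opposite strand, and the use of strand in counting is not stated.

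The stretches upstream of both genes are shown because Mt1 and Mt2 moved together across the libraries. They run over chr8:94178839-94179081 for Mt1 and chr8:94172368-94172617 for Mt2 (GRCm38, plus strand, RefSeq starts, the Mt1 stretch cut before the GENCODE start). Capitals mark the core of the metal response element, TGCACNC or TGCGCNC on either strand, the letters MTF1 is known to bind.

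Mt1: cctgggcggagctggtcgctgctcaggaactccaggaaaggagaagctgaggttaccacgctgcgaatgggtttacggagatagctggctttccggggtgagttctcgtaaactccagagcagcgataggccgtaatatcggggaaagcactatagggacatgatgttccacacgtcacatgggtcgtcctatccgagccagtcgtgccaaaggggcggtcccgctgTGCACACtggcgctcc

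Mt2: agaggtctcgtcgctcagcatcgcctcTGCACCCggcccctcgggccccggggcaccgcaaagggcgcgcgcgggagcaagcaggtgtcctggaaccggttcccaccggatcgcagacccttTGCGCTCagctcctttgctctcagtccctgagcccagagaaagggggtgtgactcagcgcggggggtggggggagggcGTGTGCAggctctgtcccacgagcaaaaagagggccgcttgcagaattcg

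The 250 bases before the start held 1 such match in Mt1 and 3 in Mt2, 2 in Gclm and 1 in Srxn1, which were not called with CBE, and 21.4% of all 32851 windows hold at least 1. Bases past the annotated starts were not searched, so these counts are not the number of such elements that a gene has. Mt2 also holds TGACTCAGC, which begins 79 bases upstream and matches both the antioxidant response element core (found in 10.2% of windows) and the AP-1 site inside it. RefSeq windows were matched for 8 of the 10 genes, all but Hmox1 and Gclc, some with several starts. Gclm and 1 of the 3 Txnrd1 windows also hold the antioxidant response element core, and Nqo1 holds none of the 3 motifs there, which says only that these letters are not in this window.

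No member passed the test between genotypes. Of all tested genes 2.54% were called between MyTrMaSt and WT after CBE, 0.186% after PBS and 0.489% in the interaction, against 0 of the 10 in each. At an unadjusted p below 0.05 the edgeR counts were 2, 1 and 2 of the 10, against 8.06%, 16.8% and 12.5% of all tested genes. DESeq2 called 1, 0 and 0 of the 10, against 2.46%, 3.70% and 1.05% of the genes to which it gave an adjusted p. Limma voom called 0, 0 and 0, against 2.58%, 0.152% and 0.489%. These comparisons share libraries with each other and with those of CBE against PBS.

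Ferritin values after CBE lay lower in MyTrMaSt than in WT mice, but did not pass that test. Ftl1 after CBE ran from 276 to 341 CPM in MyTrMaSt and from 435 to 551 CPM in WT, without overlap, which is -0.68 on the log2 scale (SE 0.193, unadjusted p 0.00255, adjusted p 0.0885). After PBS it was -0.60 (SE 0.224, unadjusted p 0.0163, adjusted p 0.203), with 119 to 161 CPM against 138 to 319 CPM. Without WT + PBS replicate 1 the difference after PBS was -0.25 (adjusted p 0.609), and without WT + PBS replicate 2 it was -0.86 (adjusted p 0.029), where 3.86% of all tested genes were called. With the Xist level as a covariate, which follows genotype in the PBS libraries, it was -0.87 (adjusted p 0.53). The Ftl1 interaction was -0.08 (adjusted p 0.928). Fth1 after CBE ran from 4782 to 5424 CPM in MyTrMaSt and from 5736 to 6326 CPM in WT, also apart, at -0.29 (SE 0.116, unadjusted p 0.0214, adjusted p 0.395). After PBS the Fth1 groups overlapped, at -0.24 (adjusted p 0.357), at -0.10 without WT + PBS replicate 1 and at -0.13 (adjusted p 0.86) with the Xist level as a covariate. Mt1 differed by -0.17 (95% interval -0.51 to 0.17) and Mt2 by -0.41 (interval -0.84 to 0.01) after CBE, and both overlapped.

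Calls in the CBE comparison between genotypes changed with the libraries in the fit. Without WT + PBS replicate 1, which is in neither CBE group but adds to the estimate of spread, Ftl1 (-0.69, adjusted p 0.00136) and Fth1 (-0.30, adjusted p 0.0336) were called lower in MyTrMaSt, where 3.52% of all tested genes were called in either direction. Without MyTrMaSt + CBE replicate 4 alone 0 of the 10 were called (Ftl1 adjusted p 0.182). With MyTrMaSt + CBE replicate 4 left out as well, tried only once the data had been seen, 4 of the 10 were called lower: Ftl1 (-0.65, adjusted p 0.00203), Fth1 (-0.33, 0.0191), Mt2 (-0.58, 0.0202) and Hmox1 (-0.76, 0.0464), against 3.93% of all tested genes called in either direction. Without WT + PBS replicate 2 Ftl1 alone was called (adjusted p 0.0164, against 2.56% of all tested genes), as it was by DESeq2 (0.0493, against 2.46%). With only the CBE groups in the fit, Ftl1 (5.53e-04) and Fth1 (0.031) were called, against 3.42%.

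Regulators and neighbouring pathways were read from lists of genes. Of 8 regulators, Nfe2l2, which encodes NRF2, rose in WT by 1.23 (SE 0.335, adjusted p 0.0247), from 10.97 to 19.1 CPM with PBS to 26.5 to 46.3 CPM with CBE. In MyTrMaSt its value was 0.70 (adjusted p 0.154), and the called regulator there was Maff, at 1.96 (adjusted p 0.0321). Keap1 (-0.04 in WT and -0.08 in MyTrMaSt), Bach1 (0.68 and -0.05) and Mtf1 (-0.16 and 0.01) were not called. The median over the 8 was 0.47 and 0.06. With the Xist level as a covariate neither call was kept (Nfe2l2 1.02, adjusted p 0.224, and Maff 1.47, 0.0565). Without MyTrMaSt + CBE replicate 4 Maff was at 1.28 (adjusted p 0.021). The replicate block, which sets MyTrMaSt + CBE replicates 4 and 5 aside, left 0 of the 8 called in either genotype. Limma voom left 0 in MyTrMaSt. With 1 library left out at a time Nfe2l2 lost its call in 2 of 14 fits, without WT + PBS replicate 3 (adjusted p 0.0827) and without WT + CBE replicate 1 (0.164), and it lost it with only the groups compared (0.086). Leaving out MyTrMaSt + CBE replicate 4 gave 2 higher regulators in WT, and leaving out WT + PBS replicate 2 gave 1 higher and 1 lower. Maff lost its call in 3 fits, without MyTrMaSt + PBS replicate 1 (0.0685), 2 (0.122) or 3 (0.137).

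Of 19 other tested NRF2 targets, 4 rose and 0 fell in WT, with a median of 0.30, and 1 rose in MyTrMaSt, with a median of 0.21. In WT these were Slc7a11, the cystine carrier that feeds glutathione synthesis (1.73, adjusted p 0.0136), the exporter Abcc4 (1.26, 0.0439), the glutathione transferase Gstm1 (0.73, 0.0015) and the epoxide hydrolase Ephx1 (0.68, 0.0417). In MyTrMaSt it was the carbonyl reductase Cbr3 (0.81, adjusted p 0.0168). Slc7a11 ran from 1.80 to 5.25 CPM in WT + PBS and from 11.1 to 17.5 CPM in WT + CBE. In MyTrMaSt + PBS it ran from 10.04 to 22.2 CPM, above WT + PBS without overlap but not called (1.73, adjusted p 0.101, and 1.36, adjusted p 0.571, with the Xist level as a covariate). In MyTrMaSt its value with CBE was -0.64 (adjusted p 0.231), at 4.92 to 13.6 CPM, and the groups overlapped. The interaction was -2.37 (adjusted p 0.0609) and was called lower without WT + PBS replicate 1 (adjusted p 0.0423), without MyTrMaSt + CBE replicate 1 (0.0372), without both outlying libraries (0.0358) and by DESeq2 (0.00565), while with the Xist level as a covariate it was -2.02 (adjusted p 0.464). The difference after PBS was called without WT + PBS replicate 2 (2.05, adjusted p 0.0432). With the Xist level as a covariate none of the 4 WT calls was kept. Values were then 1.44 (adjusted p 0.166) for Slc7a11, 1.57 (0.0702) for Abcc4, 0.61 (0.0544) for Gstm1 and 0.49 (0.331) for Ephx1. With 1 library left out at a time Slc7a11 and Gstm1 kept their calls in all 14 fits, while Ephx1 lost it in 10 (adjusted p up to 0.133), that without WT + PBS replicate 1 (0.0699) among them, and Abcc4 in 8 (up to 0.13). With only the groups compared Gstm1 (0.0525) and Ephx1 (0.161) lost theirs, and by limma voom Ephx1 (0.0513) and Abcc4 (0.0578) did. The WT count was 2 without WT + PBS replicate 3, without any 1 of the 3 WT + CBE libraries, without MyTrMaSt + PBS replicate 1 and without MyTrMaSt + CBE replicate 2. In MyTrMaSt it was 0 without MyTrMaSt + PBS replicate 1 or 3, 2 without WT + PBS replicate 2, and 4 higher and 1 lower without WT + PBS replicate 1. Without both outlying libraries the counts were 4 higher in WT and 3 higher and 2 lower in MyTrMaSt.

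Of 19 tested genes of glutathione synthesis and use, 3 rose in WT (median of the list 0.06) and in MyTrMaSt 1 rose and 1 fell (median 0.02). The microsomal glutathione transferase Mgst1 rose in both, by 2.14 (adjusted p 6.79e-06) and 1.33 (adjusted p 7.74e-04). The gene that fell was Glrx3, a glutaredoxin of iron-sulfur handling, at -0.84 (adjusted p 0.00321). Of the 3 in WT, Slc7a11 (1.44, adjusted p 0.166) and Gstm1 (0.61, 0.0544) were not called with the Xist level as a covariate. When WT + PBS replicate 1 was left out, alone or with MyTrMaSt + CBE replicate 4, 5 rose in WT and 3 in MyTrMaSt, and without WT + PBS replicate 2 the MyTrMaSt count was 2. A fall of 1 gene was called in WT without WT + PBS replicate 2 or 3, MyTrMaSt + PBS replicate 3 or MyTrMaSt + CBE replicate 1 or 4. Of 14 thioredoxin, peroxiredoxin and superoxide dismutase genes, the same 2 rose in both genotypes. Txnip, which binds thioredoxin, changed by 1.21 and 1.56, and Prdx6, a peroxiredoxin that uses glutathione, by 1.08 and 1.13. The median of that list was -0.03 and 0.07. Both genes kept their calls in all 14 fits with 1 library left out, and Txnip in WT had an adjusted p of 0.0558 with only the groups compared. Another gene of the list was called lower in WT without WT + PBS replicate 3 or MyTrMaSt + PBS replicate 3.

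All 6 tested subunits and partners of the phagocyte NADPH oxidase, the superoxide source of microglia, rose in both genotypes (median 2.79 and 1.89). In WT mice CBE raised Cybb, its catalytic subunit, at least 17.01-fold, computed against a floor of 3 counts per library because the WT + PBS libraries hold 0 to 3. In MyTrMaSt it rose by 2.07 (adjusted p 0.0123), and by 2.70 without MyTrMaSt + PBS replicate 2. Cyba rose by 3.03 (adjusted p 1.35e-06, 3.63 without WT + PBS replicate 1) and 2.69 (adjusted p 8.34e-06), Hvcn1, a proton channel, by 3.01 and 2.35, and the cytosolic subunit Ncf4 by 2.58 in WT (adjusted p 3.51e-05) and, with an adjusted p of 0.0164, in MyTrMaSt. With the replicate block, which sets MyTrMaSt + CBE replicates 4 and 5 aside, 4 of the 6 were called in MyTrMaSt. Cybb (adjusted p 0.0916) and Ncf4 (0.0718) were lost. With 1 library left out at a time 5 or 6 were called there. After CBE 5 of these 6 were lower in MyTrMaSt than in WT, among them Cybb (-2.89, adjusted p 1.66e-06) and Cyba (-1.39, adjusted p 0.00119). The cytosolic subunit Ncf1 (-0.95, adjusted p 0.043) lost its call in 10 of 14 fits with 1 library left out (adjusted p up to 0.372), that without MyTrMaSt + CBE replicate 4 (0.0789) among them, and the other 4 kept theirs in all 14.

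Of 18 tested genes of iron transport and control, 5 rose and 1 fell in each genotype (median 0.55 in WT and -0.08 in MyTrMaSt). Lcn2, an iron-siderophore binding protein of reactive astrocytes, was at 0.844 to 4.51 CPM in WT + PBS and at 380.3, 519 and 749.6 CPM in WT + CBE. In MyTrMaSt it ran from 0 to 7.40 CPM with PBS and from 15.2 to 25.5 CPM with CBE, so that the CBE groups of both genotypes lay far apart. The rise was 7.52 (adjusted p 2.21e-08) in WT and 2.68 (adjusted p 0.00215) in MyTrMaSt, where it was 3.73 without MyTrMaSt + PBS replicate 3, and the interaction of -4.84 (SE 0.825, adjusted p 0.00847) was called. Cp, the ferroxidase ceruloplasmin, ran from 3.61 to 8.01 CPM in WT + PBS, from 23.5 to 27.3 CPM in WT + CBE, from 4.83 to 8.19 CPM in MyTrMaSt + PBS and from 4.92 to 10.1 CPM in MyTrMaSt + CBE. It rose in WT by 2.08 (adjusted p 1.20e-04), and its interaction was -2.03 (SE 0.424, adjusted p 0.0387). Slc11a1, a metal carrier of phagosomes, rose by 3.79 and 2.48, and the iron chaperone Pcbp2 by 0.91 and 1.01. Trf, transferrin, which oligodendrocytes make, fell by 0.64 and by 0.74 on the log2 scale. With the Xist level as a covariate the interactions of Lcn2 (-4.81, adjusted p 0.0592) and Cp (-1.76, adjusted p 0.39) were not kept. Nor were the WT calls of Pcbp2 (0.67, adjusted p 0.254), Slc11a2 (0.63, 0.103) and Trf (-0.73, 0.0834). The number called higher in MyTrMaSt was then 3 (Slc39a14 0.0538, Slc25a28 0.0578). The Cp interaction was not called in 10 of 14 fits with 1 library left out, with adjusted p up to 0.159 and 0.0601 without MyTrMaSt + CBE replicate 4. The Lcn2 interaction was lost in 1 of them, at -3.80 (adjusted p 0.257) without MyTrMaSt + PBS replicate 3, and by limma voom (-3.88, adjusted p 0.179). With the replicate block the Cp interaction was -1.99 (adjusted p 0.172), and Slc39a14 (0.181) and Slc25a28 (0.18) were not called in MyTrMaSt. In WT the count of higher genes was 3 without WT + CBE replicate 2 or 3 and 8 without WT + PBS replicate 1, and that of lower genes was 0 without WT + PBS replicate 2 or WT + CBE replicate 2 or 3 and 2 without WT + PBS replicate 1 or MyTrMaSt + CBE replicate 4. In MyTrMaSt 3 were higher without MyTrMaSt + PBS replicate 1 or 3 and 2 without replicate 2, and 6 higher and 3 lower without WT + PBS replicate 1. Without both outlying libraries 8 rose and 2 fell in WT, and 6 rose and 3 fell in MyTrMaSt.

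Of 7 tested genes of heme handling, the heme carrier Slc48a1 fell in WT by 0.69 on the log2 scale (adjusted p 0.0371) and 0 were called in MyTrMaSt (median -0.18 and 0.04). Slc48a1 lost its call in 7 of 14 fits with 1 library left out (adjusted p up to 0.152), among them that without WT + PBS replicate 1 (-0.39, adjusted p 0.114), and without both outlying libraries no heme gene was called in either. Among 12 other metallothionein and zinc transport genes 0 were called in WT and 1 in MyTrMaSt, the zinc carrier Slc39a1 (1.12, adjusted p 0.00884), with medians of 0.03 and -0.05. Mt3, the neuronal metallothionein, was at -0.76 (adjusted p 0.269) in WT, where replicate 1 of WT + PBS held 261.7 CPM against 49.5 and 72.1 CPM in its group, and at 0.80 (adjusted p 0.223) in MyTrMaSt. Slc39a1 lost its call without MyTrMaSt + PBS replicate 1 (adjusted p 0.05). When WT + PBS replicate 1 alone was left out 1 of the 12 was higher and 1 lower in WT, and 2 higher and 2 lower in MyTrMaSt, and without WT + PBS replicate 2 a single gene was lower in WT. Without both outlying libraries 1 of the 12 was higher and 1 lower in WT, and 3 were higher and 1 lower in MyTrMaSt.

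Of 11 genes widely used as glucocorticoid-induced, the same 5 rose in both genotypes and 0 fell (median 0.78 in WT and 0.92 in MyTrMaSt). Fkbp5, a chaperone of the glucocorticoid receptor, rose by 1.79 (adjusted p 8.28e-05) and 2.07 (adjusted p 1.57e-05), and the kinase Sgk1 by 1.30 and 1.57. Plin4, a lipid droplet protein, rose by 3.27 in WT, 4.28 without WT + PBS replicate 2, and was at least 13.7-fold higher in MyTrMaSt + CBE, where the controls hold 0 to 2 counts. Cdkn1a rose by 1.92 and 2.12, the latter 1.45 without MyTrMaSt + CBE replicate 4. The fifth was the sulfotransferase Sult1a1, which with the Xist level as a covariate was at 0.59 (adjusted p 0.234) in WT, so that 4 were called there. With 1 library left out at a time Fkbp5, Sgk1 and Plin4 kept their calls in all 14 fits in both genotypes, while the count ran from 3 to 6 in WT, with 3 without WT + CBE replicate 3, and from 4 to 6 in MyTrMaSt. These rose beside Mt1 and Mt2, and their part in the metallothionein values was not tested.

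**Figure D4:**
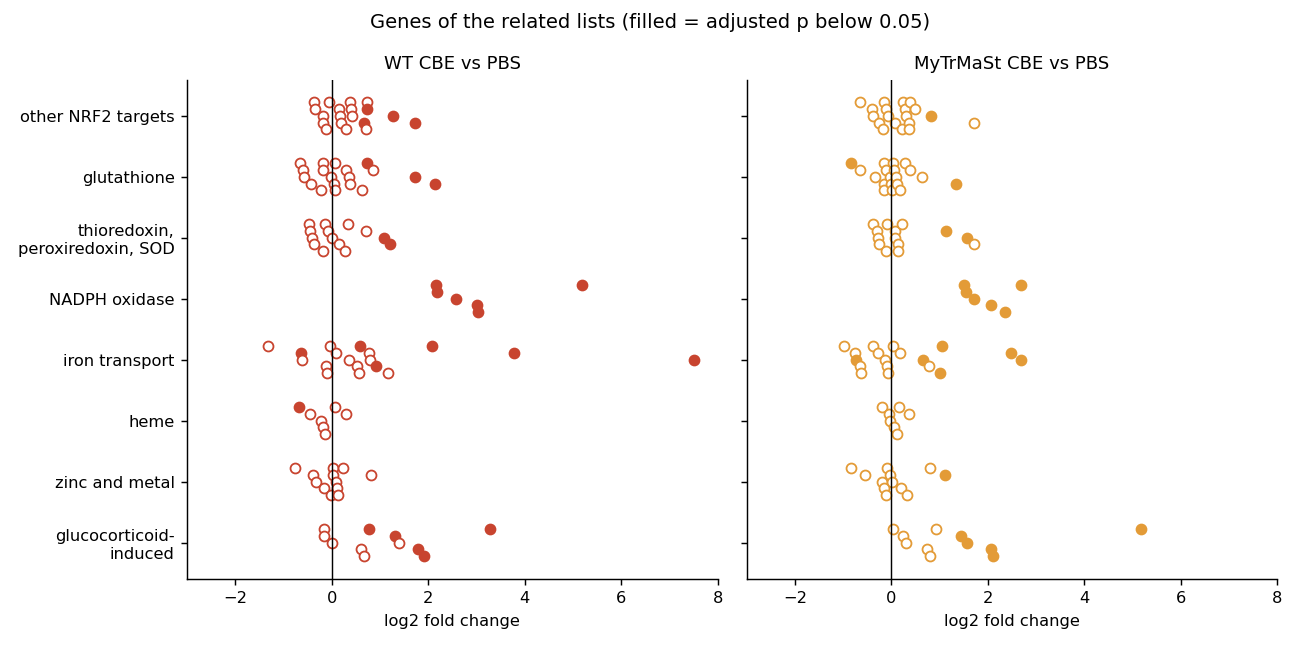
Log2 fold change of CBE over PBS (horizontal axis) of every tested gene of 8 related lists in WT (left) and MyTrMaSt (right), filled where the adjusted p was below 0.05. The positions of Cybb in WT and of Plin4 and Prdx1 in MyTrMaSt rest on controls of at most 3 counts and are not bounds. All 6 NADPH oxidase genes are filled in both, whereas 4 of 19 other NRF2 targets are filled in WT and 1 of 19 in MyTrMaSt.

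The summed microglial and astrocyte markers rose with CBE in both genotypes, and those of oligodendrocytes fell in WT. The summed level of 13 microglial markers ran from 716 to 1052 CPM in WT + PBS, from 4202 to 4752 CPM in WT + CBE, from 600.2 to 616 CPM in MyTrMaSt + PBS and from 2319 to 2659 CPM in MyTrMaSt + CBE, with 11 of 13 called higher with CBE in both genotypes. After CBE 6 of the 13 were lower in MyTrMaSt than in WT, and 10 without WT + PBS replicate 1. The 9 astrocyte markers summed to 2947 to 3571 CPM, 4153 to 4523 CPM, 3486 to 3907 CPM and 4556 to 4932 CPM in the same order, with 4 higher and 1 lower in WT and 3 higher in MyTrMaSt. Leaving out WT + PBS replicate 1 gave 5 higher and 0 lower in WT and 6 higher in MyTrMaSt, and leaving out both outlying libraries gave 7 higher in MyTrMaSt. The 1 lower in WT was also lost without WT + PBS replicate 2 or WT + CBE replicate 2 or 3. The 8 oligodendrocyte markers summed to 17600 to 21140 CPM and 10690 to 13860 CPM in WT, where 6 fell, and to 17440 to 20800 CPM and 13240 to 17520 CPM in MyTrMaSt, where 0 were called. In MyTrMaSt 3 of the 8 were called lower without WT + PBS replicate 1 and 2 without both outlying libraries, and in WT the count was 3 without WT + CBE replicate 2. Of 10 neuronal markers 3 fell in WT and 2 in MyTrMaSt. With WT + PBS replicate 1 left out 5 were lower in WT, and 4 lower and 1 higher in MyTrMaSt, where 1 was lower without MyTrMaSt + PBS replicate 3. With the Xist level as a covariate 1 was lower in WT. Of 6 tested endothelial markers 0 and 1 were called higher, of 6 choroid plexus markers 0 were called, and of 4 border macrophage markers 2 and 0 were called higher. The 2 border macrophage calls in WT became 0 without WT + CBE replicate 1 and 1 without WT + CBE replicate 2 or 3 or WT + PBS replicate 3. The endothelial call in MyTrMaSt was lost without MyTrMaSt + PBS replicate 1 or 3 or MyTrMaSt + CBE replicate 3 or 5, and 1 marker was lower there without WT + PBS replicate 1. The 2 listed neutrophil markers summed to at most 5.67 CPM in any library and did not pass the filter on low counts, so that they were not tested. The listed red cell marker was at 10.9 to 24.9 CPM and was not called, but was called lower in MyTrMaSt without both outlying libraries. The part of glial cell numbers in the ferritin, Hmox1 and metallothionein values was not tested.

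**Figure D5:**
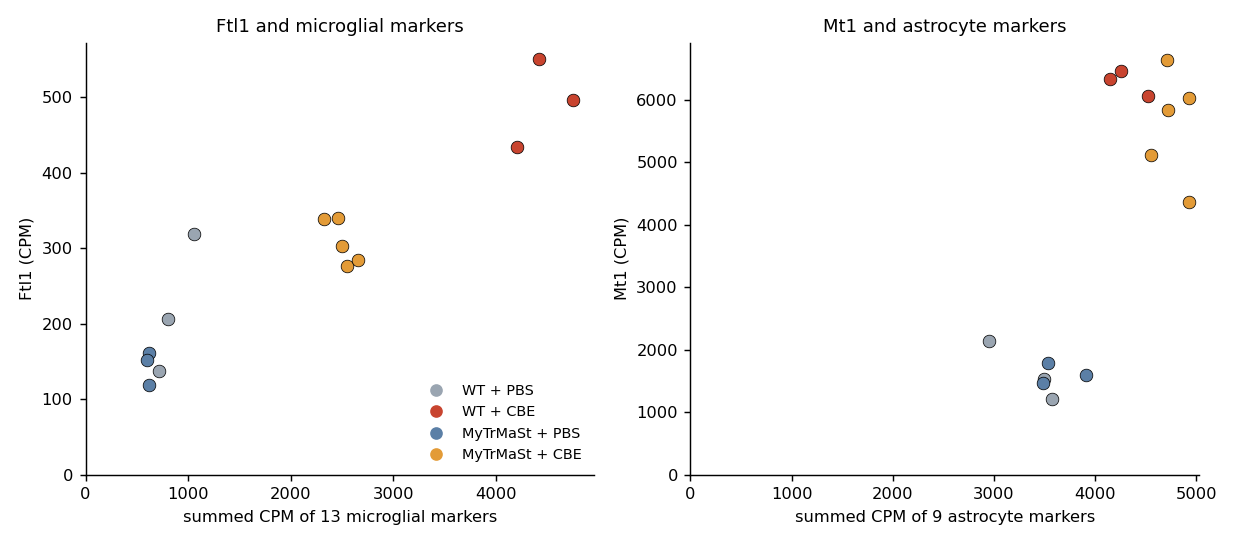
Ftl1 against the summed CPM of 13 microglial markers (left) and Mt1 against the summed CPM of 9 astrocyte markers (right), with 1 point per library, coloured by group. The CBE libraries of WT and MyTrMaSt are apart for Ftl1 and for the microglial sum, while for Mt1 they overlap. Their astrocyte sums are also apart, from 4153 to 4523 CPM in WT and from 4556 to 4932 CPM in MyTrMaSt.

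The 3 genes whose log2 CPM was most like that of each called member were taken over the 14 libraries. For Ftl1 they were Cyba (Pearson r 0.965), the complement gene C4b (0.959) and Spi1 (0.952), a transcription factor of myeloid cells. For Fth1 they were Cyp4f18 (0.969), Tagln2 (0.966) and Tspo (0.963), and for Hmox1 Emp3 (0.969), Pdlim4 (0.966) and the galectin Lgals3 (0.965). Mt1 was followed by Lgals3 (0.987), the astrocyte filament gene Gfap (0.987) and the chemokine gene Ccl3 (0.976), and Mt2 by Cnn3 (0.985), the lipopolysaccharide co-receptor gene Cd14 (0.984) and Fkbp5 (0.98). Between members r was 0.988 for Mt1 and Mt2, 0.913 for Fth1 and Ftl1, 0.963 for Hmox1 and Mt1 and 0.821 for Gclc and Srxn1. All these values describe 14 libraries in 4 groups, which share treatment, and the value of Gclc and Srxn1 includes the library in which both were high.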

How the data were processed

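Libraries were a bulk form of MARSseq, which reads 3' ends, and the authors mapped the reads to mm10 with hisat and kept unique hits. The submitters' processing notes also name cutadapt and HTSeq. The deposited values are counts of whole reads for each gene. Which annotation was used, and whether strand or molecular identifiers were, is not given in the sources used here. A table of counts divided by 1 factor per library and a table of the authors' own fold changes and p values were not used. In R 4.3.3, edgeR 4.0.16 kept genes by filterByExpr, scaled libraries by TMM and fitted 4 group means to all 14 libraries by quasi-likelihood, with Benjamini-Hochberg adjustment over 11852 genes. Intervals are at 95%. The fit was tested on simulated data, which held no outlying library and no difference of sex, so that the simulation does not bear on their effect.

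The members and lists were chosen with earlier results of these data known. Named genes were all 10 members, the 4 largest called changes in WT of each pathway list, pathway genes called in the interaction and the 3 most correlated genes. Others, called in MyTrMaSt, lost under an alternative or high in 1 library, and Keap1, Bach1, Mtf1 and Mt3, were named after their values were seen. Cell type markers were counted and summed. The 19 pairs of libraries within groups gave a chi-square per degree of freedom between 2.45 and 22.3, and none was taken as a duplicate. Upstream windows are from RefSeq (GRCm38.p6) and gene models from GENCODE vM21.

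Alternatives were RLE factors, DESeq2 1.42.0, limma 3.58.1 voom, other filters, thresholds and samples, an Xist covariate, a replicate block, leaving out each library and, chosen after the data were seen, leaving out both outlying libraries.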

Additional observations from a re-analysis of the deposited data

Results flagged for a closer look

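In the group with 5 libraries, MyTrMaSt + CBE, the highest value stood far from the other 4 for 2 of the 10 genes. By chance the rule flags about 1 in 20 groups of independent, normally spread values, whereas these genes share libraries. The share of all tested genes that it flags was not counted, so 2 of 10 is not read as an excess. Srxn1 was at 320.0 CPM in replicate 4 against 107 to 133 CPM in the other 4 libraries. Gclm was at 91.6 CPM in replicate 5 against 62.8 to 69.0 CPM. The response to CBE differed between genotypes for 2 genes of iron handling outside the set, with an interaction of -4.84 for Lcn2 (adjusted p 0.00847) and -2.03 for Cp (adjusted p 0.0387) on the log2 scale, the rise being smaller in MyTrMaSt for Lcn2 and not called there for Cp. With the Xist level as a covariate the adjusted p was 0.0592 for Lcn2 and 0.39 for Cp, and without MyTrMaSt + PBS replicate 3 it was 0.257 for Lcn2 and 0.13 for Cp.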

How the results depend on the processing

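Every log2 fold change of Hmox1, Mt1 and Mt2 in both genotypes kept its direction and its call under every alternative in which it was tested. Hmox1 was not tested with at least 10 counts in every library. For CBE against PBS the share of all tested genes called was counted in the main fit only. The number of members called with CBE in WT was 5 and fell to 3 with only the groups compared. Between genotypes after CBE it was 0, and rose to 1 at an adjusted p below 0.1 (against 2.94% of all tested genes) and by DESeq2, to 2 with only the groups compared and to 4 without both outlying libraries, and ran from 0 to 2 when each library was left out in turn. After PBS it was 0 and ran from 0 to 1, with 1 without WT + PBS replicate 2. Replicate numbers did not pair the libraries (correlations of deviations from -0.11 to 0.0139, and 0 of 3 control libraries in each genotype correlated best with its own number). The replicate block sets MyTrMaSt + CBE replicates 4 and 5 aside, as no other group has those numbers. It left 5 calls in WT and 4 in MyTrMaSt, where Fth1 was at 0.50 (adjusted p 0.0933), and gave -0.062 for Txnrd1, -0.054 for Srxn1 and -0.018 for the Srxn1 interaction. Of the alternative values of single members for CBE against PBS and for the interaction, 620 kept direction and side of the threshold, 34 changed sign, 6 lost and 4 gained the call. Between genotypes, with the threshold kept at 0.05, 10 further calls of single members were gained after CBE and 1 after PBS. Sign changes concerned values that were not called. With the Xist covariate they were Srxn1 in WT (0.74), Txnrd1 in MyTrMaSt (-0.0014) and the interactions of Gclc (-0.32), Srxn1 (-0.71) and Ftl1 (0.20). With at least 10 counts in every library Srxn1 in WT was 0.032, and by voom Txnrd1 in WT was 0.018. Without both outlying libraries Gclc (-0.064) and Txnrd1 (0.30) in WT, Txnrd1 (-0.0048) and Srxn1 (-0.044) in MyTrMaSt and the interactions of Txnrd1 (-0.30) and Srxn1 (-0.040) changed sign. Leaving out each library gave -0.69 to 0.23 for Nqo1, -0.066 to 0.11 for Gclc, -0.30 to 0.29 for Txnrd1 and -0.12 to 0.059 for Srxn1 in WT, and -0.058 to 0.14 for Txnrd1 and -0.055 to 0.47 for Srxn1 in MyTrMaSt. For the interaction it gave -0.26 to 0.33 for Txnrd1, -0.014 to 0.51 for Srxn1, -0.20 to 0.023 for Fth1, -0.44 to 0.17 for Ftl1 and -0.41 to 0.016 for Mt1. The cause of these changes was not tested. Nqo1, with 2 to 13 counts per library, was not tested without some libraries because it then missed the filter.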
